A study of Homo sapiens with 6 samples.

Results

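TXNIP, 3 relatives with an arrestin domain (ARRDC2, ARRDC3 and ARRDC4), the glucose-sensing transcription factor gene MLXIP, and the thioredoxin genes TXN and TXNRD1 were followed in lymphoma cells with reduced EZH2. The 7 genes, and the gene lists used below, were chosen with earlier results of these data known. Counts among them, set beside shares of all genes, are therefore no independent test. Probe sets were then taken by gene symbol: every probe set annotated to 1 of these 7 genes and to no other gene was used. That gave 7 of 19775 genes and 14 of 41091 single-gene probe sets. Of the 14, 10 passed a filter on low signal (at least 2 of 6 arrays above 6.21, the median of all values on the log2 scale) and 4 did not, so 6 of the 7 genes were tested and ARRDC4 is described by its values only.

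RNA was measured on 6 Affymetrix arrays of KARPAS-422 and Pfeiffer, 2 established human lines of diffuse large B-cell lymphoma. The groups compared were KARPAS-422 with shEZH2, a lentiviral short hairpin RNA against EZH2 (2 arrays), KARPAS-422 with shNTC, a non-targeting hairpin (2 arrays), Pfeiffer with shEZH2 (1 array) and Pfeiffer with shNTC (1 array). All 4 groups were infected with polybrene at 8 µg/ml in medium holding 10% serum, kept under puromycin at 1 µg/ml for 2 days beginning 2 days later, and labelled as 10 days of knockdown. Each arm had 1 hairpin sequence, so an effect of EZH2 loss and an effect of that hairpin elsewhere cannot be told apart. The KARPAS-422 arrays are called biological replicates, but no label says that they came from separate infections, so a p-value measures only the spread between these arrays. Levels are log2 signals. Unless another direction is given, a difference is the shEZH2 level less the shNTC level, in log2 units.

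TXNIP encodes the thioredoxin-interacting protein, an alpha-arrestin that binds reduced thioredoxin and lowers glucose uptake. The alpha-arrestins, which include ARRDC2, ARRDC3 and ARRDC4, act as adaptors that bring membrane proteins to ubiquitin ligases of the NEDD4 family. MLXIP encodes MondoA, which pairs with MLX and activates TXNIP and ARRDC4 when glucose 6-phosphate is abundant. Thioredoxin (TXN) reduces disulfide bonds in other proteins, and thioredoxin reductase 1 (TXNRD1) regenerates it with NADPH.

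The DNA just before 4 of the gene starts is shown because MondoA acts on TXNIP and ARRDC4 through such sequence, because ARRDC3 was called together with TXNIP in KARPAS-422, and because TXNRD1 is a target of the oxidative stress factor NRF2. Each is the 250 bases before a RefSeq gene start of build GRCh38.p14, written 5′ to 3′ on the gene's strand. Capitals mark matches, on either strand, to 5 motifs. These were a form of the carbohydrate response element bound by MondoA (CACGNG, then 5 bases, then CACGNG again), the E-box CACGTG, the CCAAT box, the forkhead motif TGTTTAC, and the core of the antioxidant response element of NRF2, which is TGACNNNGC. An E-box also fits the CACGNG unit of the carbohydrate response element.
TXNIP, chr1:145996580-145996829, minus strand: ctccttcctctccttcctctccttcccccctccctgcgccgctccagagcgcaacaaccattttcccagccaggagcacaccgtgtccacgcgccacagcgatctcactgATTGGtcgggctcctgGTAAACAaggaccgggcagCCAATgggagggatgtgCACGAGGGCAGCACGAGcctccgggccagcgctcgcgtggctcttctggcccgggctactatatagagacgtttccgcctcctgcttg
ARRDC3, chr5:91383318-91383567, minus strand: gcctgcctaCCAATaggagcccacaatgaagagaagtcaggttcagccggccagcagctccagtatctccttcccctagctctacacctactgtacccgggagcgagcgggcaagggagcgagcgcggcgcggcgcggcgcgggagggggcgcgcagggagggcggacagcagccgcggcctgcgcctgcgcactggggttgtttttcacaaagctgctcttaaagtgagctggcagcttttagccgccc
ARRDC4, chr15:97960453-97960702, plus strand: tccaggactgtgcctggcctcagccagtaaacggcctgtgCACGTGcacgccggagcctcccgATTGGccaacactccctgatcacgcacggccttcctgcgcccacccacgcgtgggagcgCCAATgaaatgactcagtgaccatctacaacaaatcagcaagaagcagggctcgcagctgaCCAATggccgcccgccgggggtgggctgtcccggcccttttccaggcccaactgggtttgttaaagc
TXNRD1, chr12:104286782-104287031, plus strand: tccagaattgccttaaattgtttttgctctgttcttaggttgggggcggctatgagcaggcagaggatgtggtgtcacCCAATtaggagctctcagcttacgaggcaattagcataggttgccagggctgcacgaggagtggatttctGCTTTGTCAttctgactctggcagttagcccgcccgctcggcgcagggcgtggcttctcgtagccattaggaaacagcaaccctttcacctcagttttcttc
In TXNIP the carbohydrate response element spans bases 88 to 72 before the start and lies downstream of a CCAAT box on each strand and of a forkhead motif. That 17-letter pattern was found in 16 of 35116 windows of 250 bases, or 0.0456%, and in no other window of the 7 genes. ARRDC4 had an E-box at 210 to 205 bases before its start (6.34% of windows hold one) and 3 CCAAT boxes (32% of windows hold at least 1). The TXNRD1 window held the antioxidant motif at 102 to 94 bases before the start, on the opposite strand, and the window of its other listed start held one at 99 to 91 bases (10.9% of windows hold one). Of the 5 motifs the ARRDC3 window held only a CCAAT box, and a forkhead motif lay 29 to 23 bases before its other listed start (2.98% of windows hold one). A match describes letters in a window and says nothing about binding in these cells.

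EZH2, the catalytic subunit of Polycomb repressive complex 2, read 10.52 and 10.55 on the KARPAS-422 shEZH2 arrays, against 11.71 and 11.57 on the shNTC arrays. That left 46.3% of the control signal (limma, adjusted p = 7.73e-04), and in Pfeiffer 37.6% was left. Every array had a 2% trimmed mean signal of 500 on the linear scale. The ACTB 3′ minus 5′ control log2 signal was 0.138 and 0.175 on KARPAS-422 shEZH2 arrays, against 0.0593 and 0.0830 on shNTC arrays. The same GAPDH value was -0.169 and -0.241, against -0.182 and -0.158, and overlapped between the arms. The part of RNA quality in the results below was not tested. Of 8 B cell markers on the arrays, 7 passed the signal filter. CR2 did not, and EBF1 read 6.01 with shEZH2 and 6.02 with shNTC in Pfeiffer, below the filter's 6.21. T cell receptor genes CD3D (10.53 and 10.61, against 11.43 and 11.24) and CD3G (11.43 and 11.13, against 11.74 and 12.08) were bright in KARPAS-422 and fell there, while the T cell gene CD8A (13.6 and 13.49) and the epithelial gene EPCAM (12.98 and 13.33) were bright on the Pfeiffer arrays. The summed linear signal of 8 T and NK cell markers was 3997 to 4406 on the KARPAS-422 shEZH2 arrays, against 6409 to 6999 on the shNTC arrays. Of these 8, 4 passed the signal filter, as did 5 of 8 fibroblast and epithelial and 2 of 7 myeloid markers. The sums therefore hold dim signals too. The summed signal of the 8 fibroblast and epithelial markers was 559 to 685, against 541 to 586. That of the 7 myeloid markers was 141 to 241, against 261 to 294. The part of these differences in the results below was not tested.

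TXNIP was higher with shEZH2 in both lines, on all 3 of its probe sets, and the rise passed the test in KARPAS-422. On the brightest probe set its signal was 13.63 and 13.33 on the KARPAS-422 shEZH2 arrays, against 12.98 and 12.61 on the shNTC arrays. Both shEZH2 arrays lay above both shNTC arrays. The difference was 0.69 (SE 0.15, n = 2 per arm, limma, adjusted p = 0.0165), a 1.61-fold rise. In Pfeiffer the signal was 10.17 with shEZH2 and 8.24 with shNTC, a difference of 1.93 or 3.8-fold from 1 array per arm, with no replicate check. This placed TXNIP at rank 83 from the top of 13036 genes in Pfeiffer, where TXNIP was the only 1 of 6 members to read at least 1 log2 unit higher or lower (4.71% of genes did, 3.23% higher and 1.48% lower), and at rank 1647 in KARPAS-422. RNA was taken from whole cultures, so a change in RNA per cell and a change in the share of cells with the transcript cannot be told apart.

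**Figure D1:**
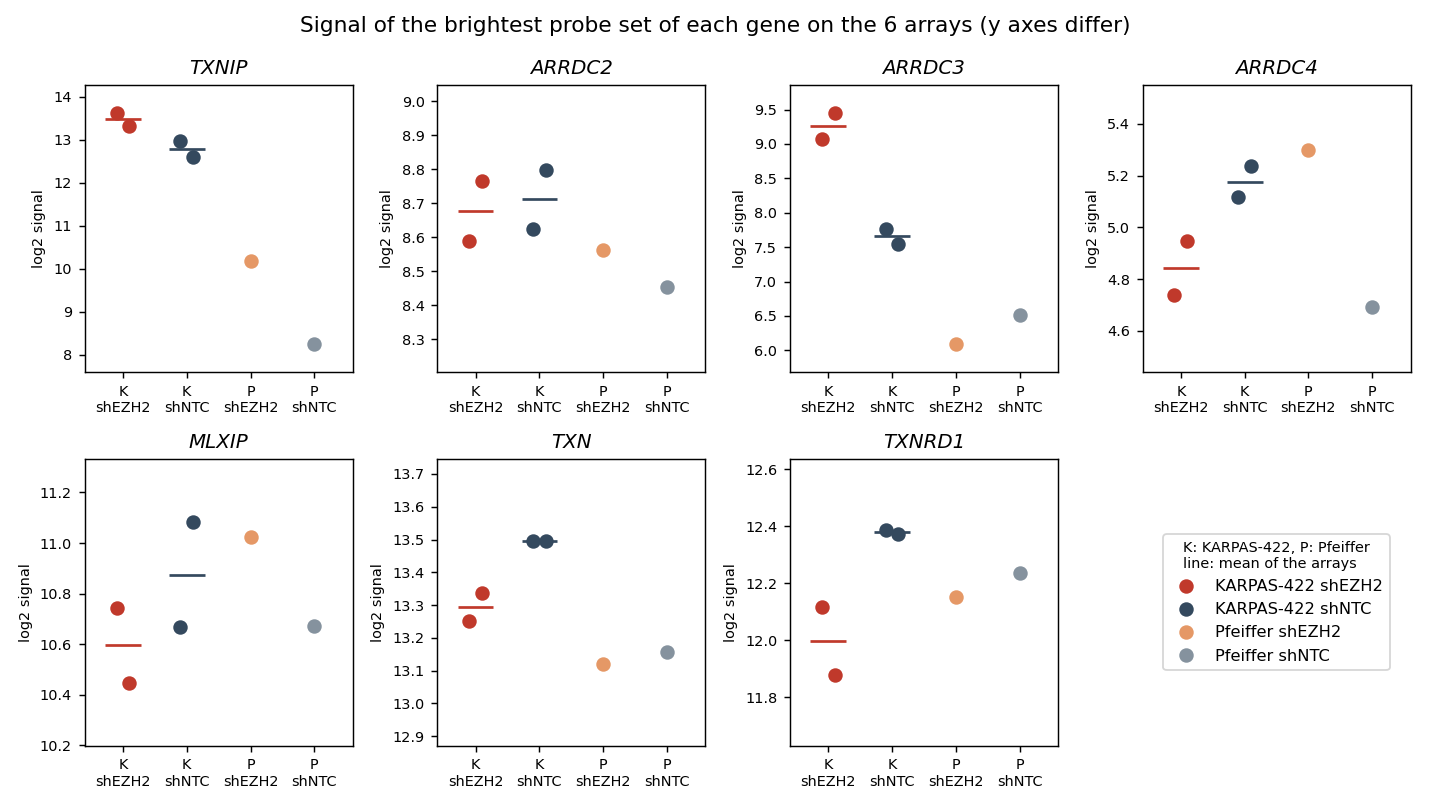
Log2 signal (y axis, a separate scale for each gene) of the brightest probe set of each of the 7 genes, by group (x axis). Each point is 1 array, and lines are means of the 2 KARPAS-422 arrays of an arm. TXNIP and ARRDC3 lie higher with shEZH2 in KARPAS-422, with no overlap between the arms, and TXNIP also in Pfeiffer, where ARRDC3 lies lower.

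The 3 TXNIP probe sets differed in size of effect but not in direction. Probe set 201008_s_at read 13.37 and 13.16 on the KARPAS-422 shEZH2 arrays, against 12.8 and 12.06 on the shNTC arrays, and in Pfeiffer 9.65 with shEZH2 and 7.41 with shNTC. Probe set 201009_s_at read 12.99 and 12.67, against 11.87 and 11.18, in KARPAS-422, and 9.06 with shEZH2 and 7.44 with shNTC in Pfeiffer. On both of them every shEZH2 array of a line lay above every shNTC array of that line. When all 25186 probe sets above the filter were fitted one by one, the differences in KARPAS-422 were 1.3 (probe set 201009_s_at, SE 0.22, adjusted p = 0.00900), 0.84 (201008_s_at, SE 0.22, adjusted p = 0.0382) and 0.69 (201010_s_at, SE 0.15, adjusted p = 0.0206). In Pfeiffer the same probe sets read 1.62, 2.25 and 1.93 higher. All 3 carry the _s_at suffix, used where probes can match several transcripts, so no value remains for TXNIP when such probe sets are left out. On the brightest probe set the KARPAS-422 call was lost when limma was run with no intensity trend (adjusted p = 0.113). Leaving out shEZH2 replicate 1 ended it too (0.54, adjusted p = 0.125), as did leaving out shEZH2 replicate 2 (0.84, with an adjusted p of 0.0571). Over its alternatives the adjusted p ran between 0.00185 and 0.125.

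The level of TXNIP differed more between the lines than between the hairpins. On the brightest probe set the KARPAS-422 shNTC mean stood 4.55 log2 units above the Pfeiffer shNTC array (23.5-fold), and the other probe sets gave 16.9-fold and 32.5-fold. With shEZH2 the gap was 3.31 log2 units, or 9.95-fold. Over both hairpins the KARPAS-422 minus Pfeiffer difference was 3.93 (SE 0.26, 4 against 2 arrays, limma, adjusted p = 1.28e-05), rank 199 of 13036 genes. TXNIP, ARRDC3 and TXN were called higher in KARPAS-422 and 0 of 6 members lower, where 50.2% of genes were called (23.5% higher and 26.7% lower). The TXNIP call held under every alternative that gave a value, with an adjusted p of at most 8.83e-04. Even with shEZH2, TXNIP in Pfeiffer (10.17) read below the lowest KARPAS-422 array (12.61). With median centring, under which the median of all genes between the lines was 0.22 in place of -0.05, 4688 genes were higher and 2480 lower in KARPAS-422, beside 3057 and 3485 as deposited.

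Taking both lines together, TXNIP was the only 1 of 6 tested members to pass, at 1.1 (SE 0.25, n = 3 per arm, limma, adjusted p = 0.0444), where 6.22% of genes were called (3.76% higher and 2.46% lower). That call was lost when any single KARPAS-422 array was left out: adjusted p = 0.195 and 0.165 without shEZH2 replicates 1 and 2, and 0.0897 and 0.155 without shNTC replicates 1 and 2. It was also lost without the intensity trend (adjusted p = 0.146) and without a filter (adjusted p = 0.0631). With each probe set fitted on its own, the difference over both lines was 1.41 on 201009_s_at (SE 0.19, limma, adjusted p = 0.0201). On 201008_s_at it was 1.31 (SE 0.30, limma, adjusted p = 0.05004), which did not pass. With median centring 484 genes were higher and 1205 lower over both lines, beside 490 and 321 as deposited, and TXNIP passed at 1.00 (adjusted p = 0.0393). The larger difference in Pfeiffer than in KARPAS-422 did not pass as an interaction (-1.24, SE 0.26, limma, adjusted p = 0.0705), and 0 of 6 members did, where 1.7% of genes passed (1.25% higher and 0.453% lower). Fitted among all probe sets, the TXNIP interaction was -0.31 on 201009_s_at (SE 0.39, adjusted p = 0.742) and -1.41 on 201008_s_at (SE 0.39, adjusted p = 0.155). With the mean of its probe sets it was -0.99 (adjusted p = 0.244). Before adjustment in limma, 2 of the 6 members, TXNIP and ARRDC3, were under the 0.05 threshold, as were 17.5% of all genes. TXNIP passed without shNTC replicate 1 (-1.05, adjusted p = 0.0465) or shNTC replicate 2 (-1.42, adjusted p = 0.0109) and with a filter that asked for 4 arrays (adjusted p = 0.0445).

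ARRDC3, an alpha-arrestin that binds beta-adrenergic receptors and integrin beta 4, rose in KARPAS-422 and read lower in Pfeiffer. Its single probe set read 9.07 and 9.45 on the KARPAS-422 shEZH2 arrays, against 7.76 and 7.55 on the shNTC arrays, with a gap of more than 1 log2 unit between the arms. The difference was 1.61 (SE 0.22, n = 2 per arm, limma, adjusted p = 0.00367), a 3.04-fold rise and the largest among the members. In Pfeiffer the signal was 6.09 with shEZH2 and 6.52 with shNTC, a difference of -0.43 from 1 array per arm near the median of all values. Of the 1702 genes called higher in KARPAS-422, 25.2% read lower in Pfeiffer, as ARRDC3 did. The difference between the lines' effects was 2.04 (SE 0.39, limma, adjusted p = 0.0562) and did not pass. It passed without shNTC replicate 1 (2.14, adjusted p = 0.0283) or shNTC replicate 2 (1.93, adjusted p = 0.0349) and with the filter at 4 arrays (adjusted p = 0.0360).

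The KARPAS-422 call of ARRDC3 was lost without shEZH2 replicate 2 (1.41, adjusted p = 0.0568). It held under the other alternatives, the fit without an intensity trend among them. ARRDC3 also stood higher in KARPAS-422 than in Pfeiffer, by 2.16 over both hairpins (SE 0.42, limma, adjusted p = 0.00339). That gap was 1.14 log2 units (2.2-fold) between the shNTC groups and 3.17 (9.02-fold) between the shEZH2 groups. With both lines in 1 model its hairpin difference was 0.93 (adjusted p = 0.168).

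ARRDC2, an alpha-arrestin, and ARRDC4 did not pass in KARPAS-422. ARRDC2 read 8.59 and 8.77 on the KARPAS-422 shEZH2 arrays, against 8.63 and 8.8 on the shNTC arrays, and the arms overlapped. The difference was -0.03 (SE 0.16, limma, adjusted p = 0.901), and in Pfeiffer 0.11. ARRDC4, which in other cells responds to glucose through MondoA as TXNIP does, was dim throughout: 4.74 and 4.95 on the KARPAS-422 shEZH2 arrays, against 5.12 and 5.24 on the shNTC arrays. In Pfeiffer it read 5.3 with shEZH2 and 4.69 with shNTC. All 6 values were below the filter's 6.21. Fitted without a filter, ARRDC4 differed by -0.33 in KARPAS-422 (SE 0.49, adjusted p = 0.717).

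MLXIP, the gene of MondoA, had 4 probe sets that did not agree in sign. On the brightest it read 10.74 and 10.45 on the KARPAS-422 shEZH2 arrays, against 10.67 and 11.08 on the shNTC arrays, and the arms overlapped. The difference was -0.28 (SE 0.17, limma, adjusted p = 0.258), and Pfeiffer read 0.35 higher with shEZH2. The other probe set above the filter, 225157_at, gave 0.29 in KARPAS-422 (SE 0.17, adjusted p = 0.272, fitted among all probe sets) and -0.03 in Pfeiffer. A dim probe set (211789_s_at) read 5.76 with shEZH2 and 3 with shNTC in Pfeiffer, the largest Pfeiffer difference among the 14 at 2.76, with both values below the filter. The last, also dim, read 3.19 and 4.12 with shEZH2, against 1.08 and 5.27 with shNTC, in KARPAS-422.

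**Figure D2:**
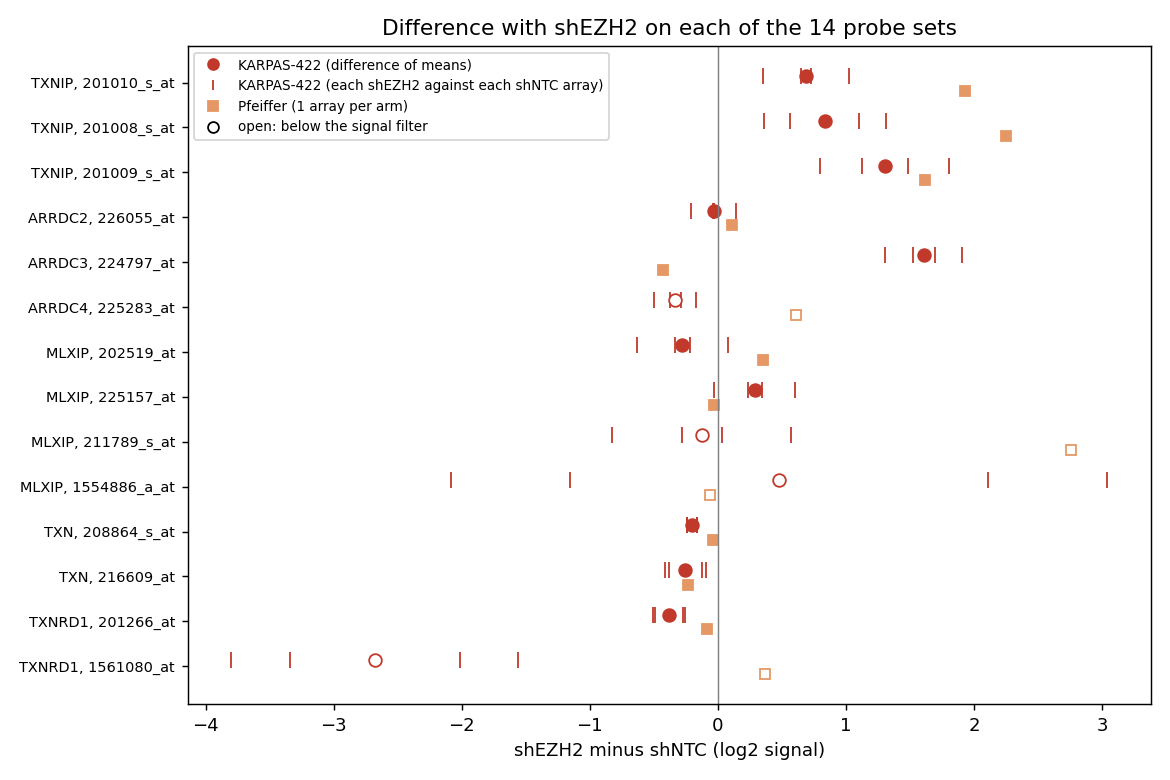
Difference in log2 signal, shEZH2 minus shNTC (x axis), for each of the 14 probe sets (y axis). Circles are differences of means in KARPAS-422, ticks the 4 pairs of single arrays behind them, squares the 1 pair of Pfeiffer arrays, and open symbols probe sets below the signal filter. The 3 TXNIP probe sets lie right of 0 in both lines, ARRDC3 lies on opposite sides, and the dim MLXIP and TXNRD1 probe sets scatter most.

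The thioredoxin genes read slightly lower with shEZH2 in KARPAS-422, and only TXNRD1 passed. TXNRD1 read 12.12 and 11.88 on the shEZH2 arrays, against 12.39 and 12.37 on the shNTC arrays, with no overlap. The difference was -0.38 (SE 0.10, n = 2 per arm, limma, adjusted p = 0.0313), which left 76.8% of the control signal. The call was lost under quantile scaling (-0.28, adjusted p = 0.0783), under cyclic loess (-0.24, adjusted p = 0.105), with no filter (adjusted p = 0.0564) and with no trend (adjusted p = 0.145). Leaving out an array also ended it for shEZH2 replicate 2 (-0.26, with an adjusted p of 0.137), shNTC replicate 1 (-0.37, 0.0882) and shNTC replicate 2 (-0.39, 0.0732). In Pfeiffer TXNRD1 read 12.15 with shEZH2 and 12.24 with shNTC. Its second probe set, 1561080_at, read 0.79 and 2.57, against 4.13 and 4.59, and lay below the filter on all arrays.

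TXN read 13.25 and 13.34 on the KARPAS-422 shEZH2 arrays, against 13.5 on both shNTC arrays. The groups did not overlap, but the difference of -0.20 did not pass (SE 0.07, limma, adjusted p = 0.0748), and it was 0.04 after cyclic loess normalization (adjusted p = 0.687) and -0.30 after median centring (adjusted p = 0.0283). Its second probe set gave -0.25 (SE 0.14, adjusted p = 0.243). In Pfeiffer TXN read 13.12 with shEZH2 and 13.16 with shNTC. Over both hairpins TXN was 0.26 higher in KARPAS-422 than in Pfeiffer (SE 0.08, limma, adjusted p = 0.0321), a call lost without any 1 KARPAS-422 array (adjusted p = 0.0553 to 0.107), with no filter (0.0583) and with no trend (0.114).

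Of the 6 members tested in KARPAS-422, 2 rose and 1 fell, against a background of 25.4% of genes called (13.1% higher and 12.3% lower). The members' median difference was -0.12, beside -0.02 over all 13036 genes. Their arms did not overlap for 4 of 6 members, 2 higher and 2 lower, as was so for 65.7% of all genes (31.8% higher and 33.9% lower). With median centring, under which the median of all genes was -0.12, 1379 genes were higher and 2337 lower, beside 1702 and 1603 as deposited. Under that scaling TXNIP was 0.59 higher, ARRDC3 1.51 higher and TXNRD1 0.48 lower on the log2 scale, with TXN also called.

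**Figure D3:**
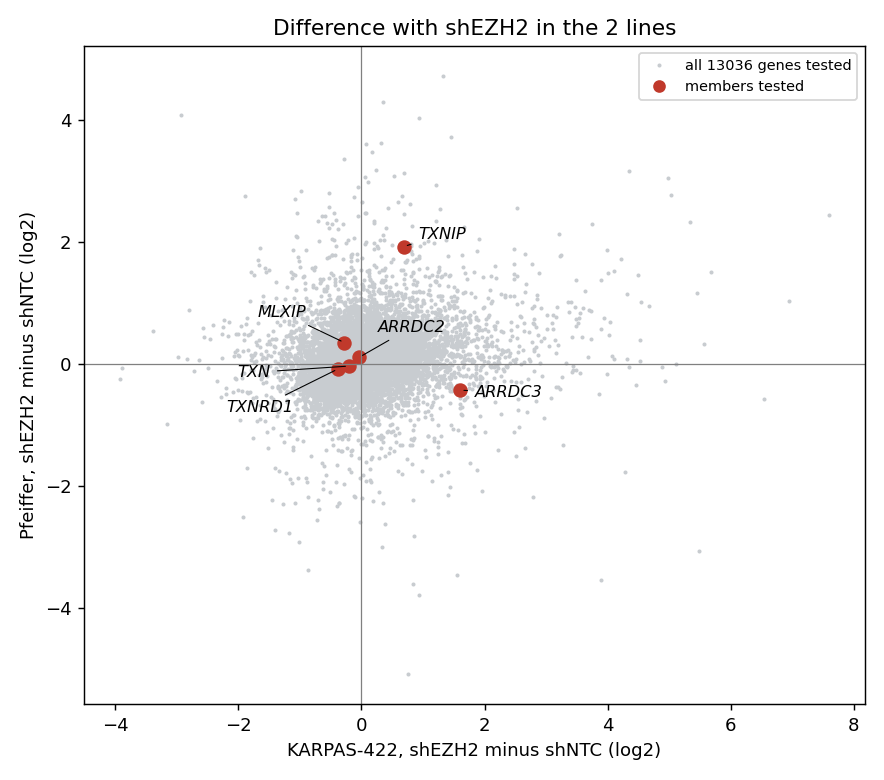
Difference in log2 signal, shEZH2 minus shNTC, in KARPAS-422 (x axis) and in Pfeiffer (y axis) for 13036 genes (grey) and the 6 members tested (red). TXNIP lies above 0 on both axes, ARRDC3 above 0 in KARPAS-422 and below 0 in Pfeiffer, and the other members lie near the centre of the cloud.

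Among the alpha-arrestins, 2 of 4 tested rose in KARPAS-422 (TXNIP and ARRDC3) and 0 fell, and 0 rose without shEZH2 replicate 2. Over all genes in KARPAS-422, 25.4% were called, 13.1% higher and 12.3% lower. This list and those below were chosen with earlier results of these data known, so such comparisons are no independent test. Of 10 genes tested in the network of MondoA, MLX, MAX and their partners, 1 rose and 0 fell (limma), and 9 did not pass. That was a share of 10% called, below the share over all genes. The gene that rose was MXD3, a repressor that pairs with MAX, at 0.69 (SE 0.20, adjusted p = 0.0444), a call lost under median centring (adjusted p = 0.0706), cyclic loess (0.0988) and quantile scaling (0.134). The median of this list was 0.01 as deposited and -0.09 after median centring, beside -0.02 and -0.12 over all genes. Of 4 beta-arrestin and VPS26 genes 0 passed in limma, with 0 at an unadjusted p under 0.05, the smallest p being those of VPS26B (-0.63, adjusted p = 0.138) and VPS26A (0.19, adjusted p = 0.173).

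Of 18 genes of the thioredoxin and peroxiredoxin system tested in KARPAS-422, 9 fell and 2 rose, and the median was -0.33, beside -0.02 over all genes and 12.3% of all genes lower. GLRX3, a glutaredoxin with a thioredoxin domain, fell by 0.84 (SE 0.08), and SRXN1, the sulfiredoxin that repairs overoxidised peroxiredoxins, fell by 0.64 (SE 0.15). TXNDC17, a small thioredoxin-like protein, fell by 0.55 (SE 0.08) and the mitochondrial peroxiredoxin PRDX3 by 0.47 (SE 0.08), although another probe set of TXNDC17 read 0.14 higher and another of PRDX3 0.03 higher. The 2 that rose were nucleoredoxin (NXN) at 1.58 (SE 0.29) and the mitochondrial methionine sulfoxide reductase MSRB2 at 1.29 (SE 0.13). Under cyclic loess PRDX3 did not pass (limma, adjusted p = 0.0573). Over all genes the number lower was 1603 as deposited, 1584 under quantile scaling, 2337 under median centring, 1199 under cyclic loess and 134 with no trend. The number lower in this list was 6 under quantile scaling, 12 under median centring and 3 under cyclic loess, beside 2 higher under each. Without shEZH2 replicate 1 or shNTC replicate 1 it was 5, without shEZH2 replicate 2 it was 2, and with no trend it was 1.

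Of 18 glutathione and glutaredoxin genes, 5 fell and 2 rose in KARPAS-422, with a median of -0.24, so that 38.9% were called, beside 25.4% of all genes. The number lower was 3 under cyclic loess and when either 1 of the shEZH2 arrays was left out, 8 under median centring and 2 with no trend. GCLM, the regulatory subunit of the enzyme that starts glutathione synthesis, fell by 1.01 (SE 0.11), and CHAC2, which degrades glutathione, fell by 0.83 (SE 0.09). GLRX2 fell by 0.50 and the lipid peroxide reductase GPX4 by 0.41, which did not pass under cyclic loess (adjusted p = 0.0667). Glutaredoxin 1 (GLRX) rose by 1.4 (SE 0.10) and MGST3 by 0.72 (SE 0.13). Of 17 NRF2 genes, which share GCLM, GCLC, SRXN1 and TXNRD1 with the other lists, 7 fell and 3 rose, with a median of -0.20. Under cyclic loess 4 fell and 3 rose, and with no trend 2 fell and 1 rose. Without shEZH2 replicate 2, 3 fell and 1 rose, and without shNTC replicate 2, 4 fell and 3 rose. The pentose phosphate enzymes TKT and PGD, which serve NADPH supply, fell by 0.95 (SE 0.09) and 0.74 (SE 0.09), and the quinone reductase NQO1 fell by 0.71 (SE 0.20), which did not pass under cyclic loess (adjusted p = 0.0557). Haem oxygenase HMOX1 rose by 1.36 (SE 0.17), its repressor BACH1 by 0.82 (SE 0.15) and the exporter ABCC1 by 0.41 (SE 0.12), which did not pass under quantile scaling (adjusted p = 0.0755) or median centring (0.0896).

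Of 11 genes of the NEDD4 family of ubiquitin ligases, which alpha-arrestins recruit, and of their adaptors, 4 rose and 1 fell in KARPAS-422. Over all genes, 13.1% were called higher and 12.3% lower. The list's counts were equal under each other scaling, while its median of 0.12 was -0.04 with quantile scaling and -0.01 with cyclic loess. The adaptor NDFIP2 rose by 0.78 (SE 0.10), NEDD4L, which ubiquitinates sodium channels, by 0.78 (SE 0.17), SMURF2 by 0.70 (SE 0.13) and WWP1 by 0.44 (SE 0.10). ITCH, a ligase known to ubiquitinate TXNIP, read 0.46 lower on its brightest probe set (SE 0.12, adjusted p = 0.0304), but 3 of its 6 probe sets read higher and the values ranged from -0.67 to 0.92. Without shEZH2 replicate 1, 1 of the 11 rose and 0 fell, and without shEZH2 replicate 2, 2 rose and 0 fell. With no intensity trend in limma 0 of the 11 passed.

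Of 12 genes of glucose uptake and phosphorylation, 3 fell and 0 rose in KARPAS-422, a share of 25%, beside 25.4% of all genes called. The number lower was 1 when either 1 of the shEZH2 arrays was left out and with no trend. Phosphoglucose isomerase (GPI) fell by 1.01 (SE 0.08), hexokinase 1 (HK1) by 0.54 (SE 0.10) and the glucose 6-phosphatase G6PC3 by 0.33 (SE 0.09), which did not pass under quantile scaling (adjusted p = 0.0557) or cyclic loess (0.0749). The other 9 did not pass. Of 8 binding partners of TXNIP or thioredoxin, 2 fell and 0 rose, also a share of 25%: the importin KPNA2 at -0.36 and the DNA repair enzyme APEX1 at -0.31. Under quantile scaling KPNA2 (adjusted p = 0.0639) and APEX1 (0.141) did not pass, nor did they under cyclic loess (0.387 and 0.407). Over the 98 listed genes tested, Pfeiffer was read from 1 array per arm and gave medians between -0.10 and 0.27 per list. Of the 98, 3 read at least 1 log2 unit higher or lower there, beside 4.71% of all genes. They were TXNIP, the glucose transporter SLC2A3 (1.31) and the fructose transporter SLC2A5 (-1.17). Among the list genes named above other than members, GLRX3, MSRB2, TXNDC17, GCLM, CHAC2, GLRX, HMOX1, TKT, PGD, NDFIP2 and GPI kept their KARPAS-422 call under each scaling and without any 1 array, and the rest of those called lost it in at least 1 of these. Of the genes that kept it, TXNDC17 (adjusted p = 0.0695), PGD (0.0610) and NDFIP2 (0.0546) did not pass when limma was run with no intensity trend.

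**Figure D4:**
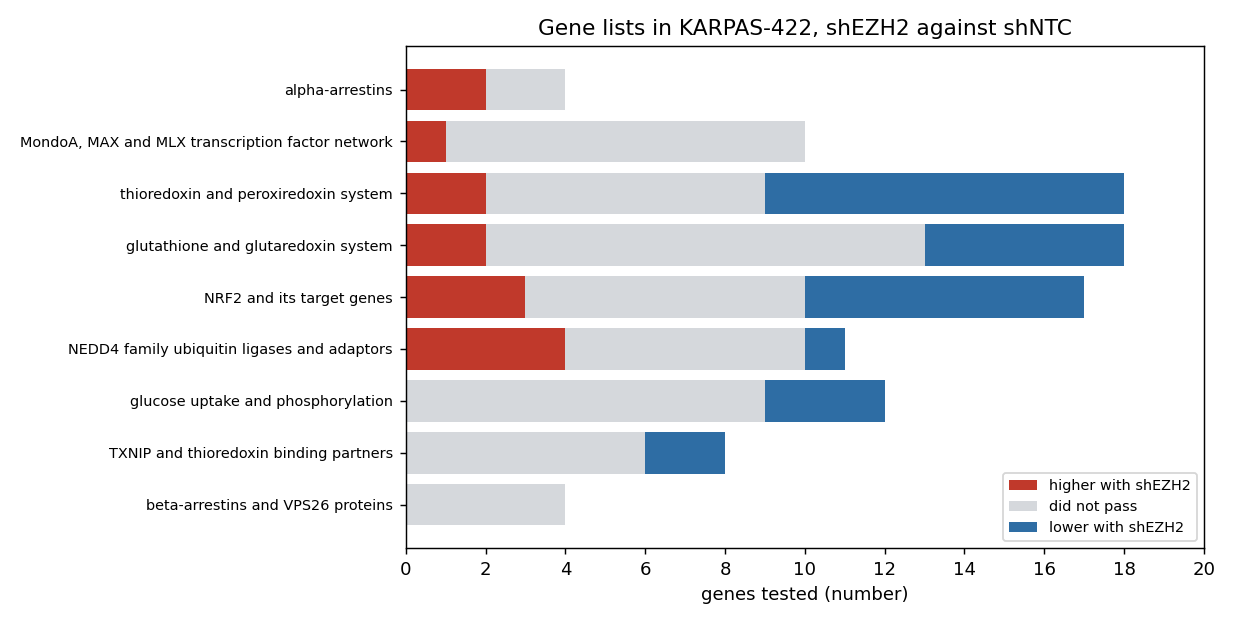
Number of genes (x axis) in each of 9 lists (y axis) that were higher (red), lower (blue) or did not pass (grey) in KARPAS-422, shEZH2 against shNTC, in limma. The thioredoxin and peroxiredoxin list has the most lower genes, 9 of 18, and the NEDD4 family list the most higher genes, 4 of 11. Over all genes, 13.1% were higher and 12.3% lower.

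The genes whose pattern lay closest to TXNIP were found by subtracting the shNTC mean of its line from each value and taking the root mean square difference over the 6 arrays. Gene models without a proper name (LOC, open reading frame, KIAA and FAM symbols) and immunoglobulin segments were passed over in naming genes, but not in the ranks below. Among the rest, HAL, the histidine ammonia-lyase gene, had the smallest value at 0.118 log2 units, followed by GLCCI1 at 0.149, the antisense gene GTF2A1-AS1 at 0.162, the tetraspanin CD82 at 0.181 and myoferlin (MYOF) at 0.182. These 5 genes were picked on the same values, so a difference near that of TXNIP in each line was set by the choice. Their p-values are therefore no separate test of it. In KARPAS-422 the rise of GLCCI1 was 0.88 (SE 0.15, limma, adjusted p = 0.00713), and in Pfeiffer it read 1.72 higher. CD82 was 0.72 higher in KARPAS-422 (SE 0.19, adjusted p = 0.0287) and 1.67 higher in Pfeiffer. MYOF was 0.80 higher in KARPAS-422 (SE 0.16, adjusted p = 0.0129) and 1.93 higher in Pfeiffer, where both of its values (4.96 with shEZH2 and 3.03 with shNTC) were below the filter's 6.21. HAL passed the filter only through its KARPAS-422 shEZH2 arrays (6.21 and 6.25, against 5.59 and 5.26 on the shNTC arrays), and its other 4 values were below it, so its place rests on dim signals. It did not pass in KARPAS-422 (adjusted p = 0.370), and neither did GTF2A1-AS1 (adjusted p = 0.0942). Of the other 5 members tested, ARRDC2 was closest at 0.876 log2 units, rank 5065 of 13035 genes, and ARRDC3 farthest at 1.12, rank 10723.

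Of the 16 genes whose window held the 17-letter pattern of the TXNIP promoter, 13 were tested, and in KARPAS-422 TXNIP and STX12 (0.43, adjusted p = 0.0384) were higher and HPF1 (-0.49, adjusted p = 0.0132) was lower, where 25.4% of all genes were called. In Pfeiffer 3 of the 13 read at least 1 log2 unit higher, as did 3.23% of all genes: TXNIP at 1.93, POM121L12 at 1.44 and MYL5 at 1.15. POM121L12 differed by -0.93 in KARPAS-422 and did not pass (limma, adjusted p = 0.0561). The set was defined by a pattern of the TXNIP promoter, so TXNIP belongs to it by that choice and is counted in both lines. These genes were also named after their values were seen. The counts are therefore no separate test beside the shares of all genes.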

How the data were processed

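The authors deposited 1 table of log2 signals for 54675 probe sets on 6 arrays. MAS5 is named, with no version, in the submitters' processing notes. Taking 2 to the power of the deposited log2 values gave a trimmed mean of 500 on every array (2% removed at each end), so each array had been scaled alone to that target. Log base and target are not stated. Neither detection calls nor scan dates were used here. The number of arrays limits the precision, and MAS5 spreads dim signals widely (range -4.57 to 14.82).

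Groups came from the sample titles. Probe sets were named by the platform annotation: 41091 had 1 gene symbol, 1801 several, 11721 none, and 62 were controls. Gene IDs matched RefSeq (GRCh38.p14) for 41037, and 0 symbols changed. Probe sets with 2 or more arrays above the median of all values were retained, and the 1 with the highest mean stood for its gene, giving 13036 genes.

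Differences were tested with limma 3.58.1 in R 4.3.3 (eBayes with an intensity trend, two-sided, Benjamini-Hochberg over all genes, threshold 0.05). A model of 4 groups (2 residual and 5.24 prior degrees of freedom) gave KARPAS-422 and the interaction. A model of line and hairpin (3 residual) gave both lines and the line difference. Pfeiffer alone was not tested. The scripts were tested on simulated data.

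Named were EZH2, the 7 members, up to 4 genes called per direction in each list (the 2 smallest p where none was), and the 5 genes most like TXNIP. The promoter genes, the markers and the opposite-sign probe sets were named after their values were seen. The members and lists were chosen with earlier results of these data known.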

Additional observations from a re-analysis of the deposited data

Results flagged for a closer look

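In 2 genes that were named for their KARPAS-422 calls, the effect of shEZH2 differed between the lines by the interaction test of limma. Of all genes, 1.7% passed that test. Named genes were picked for large KARPAS-422 differences, and the same differences enter the interaction. The test is therefore not independent of the choice, and the share of all genes is no like background for it. Glutaredoxin 1 (GLRX) rose by 1.4 in KARPAS-422 and differed by -0.13 in Pfeiffer, a difference between the effects of 1.53 (SE 0.17, adjusted p = 0.00764). Leaving out shEZH2 replicate 1 ended that call (1.58, adjusted p = 0.116), as did leaving out shEZH2 replicate 2 (1.48, adjusted p = 0.101) and fitting with no intensity trend (adjusted p = 0.131). Phosphoglucose isomerase (GPI) was at -1.01 in KARPAS-422 and -0.14 in Pfeiffer, a difference of -0.88 (SE 0.14, adjusted p = 0.0272). Its call was lost as well when shEZH2 replicate 1 was left out (-0.85, adjusted p = 0.173), when shEZH2 replicate 2 was (-0.90, adjusted p = 0.149), with no intensity trend (adjusted p = 0.232) and with no filter (adjusted p = 0.0661). Pfeiffer had 1 array per arm, so its spread was assumed to equal that in KARPAS-422.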

How the results depend on the processing

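The alternatives were quantile, median-centring and cyclic loess scaling, 16 or 64 added to each linear signal, no filter or a filter at 4 arrays, no intensity trend, the mean of a gene's probe sets, each probe set on its own, no _x_at and _s_at probe sets (which leaves no value for TXNIP), KARPAS-422 arrays alone, a replicate block, and leaving out each KARPAS-422 array. A lone array left in an arm was assumed to vary like the others. Smaller changes in the counts of genes and members called are not all listed. The cause of each change below was not tested, except that smaller tables and fewer arrays leave fewer genes or degrees of freedom.

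In KARPAS-422, TXNIP differed by 0.50 to 0.87 when 1 array was left out and was 0.69 without the trend (adjusted p = 0.113). Members called numbered 3, and 1 without the trend, and 0 to 2 when 1 array was left out. Genes higher numbered 1702, and 586 without the trend and 539 to 1649 when 1 array was left out. Genes lower numbered 1603, and 134 without the trend, 901 without _x_at and _s_at probe sets and 418 to 1113 when 1 array was left out. Members called also moved to 2 under quantile scaling, cyclic loess, no filter or no _x_at and _s_at probe sets, and to 4 under median centring or the replicate block. ARRDC2 turned positive when 1 array was left out (range -0.12 to 0.06: 0.0551 without shEZH2 replicate 1 and 0.0524 without shNTC replicate 2), MLXIP was 0.0045 with the mean of its probe sets, and TXN was 0.0413 after cyclic loess.

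Over both lines TXNIP was 1.1 with no filter (adjusted p = 0.0631), without the trend (adjusted p = 0.146) and with the replicate block (adjusted p = 0.0915), and 1.11 to 1.33 when 1 array was left out. Members called numbered 1, and 0 with no filter, no trend, no _x_at and _s_at probe sets, the replicate block or any 1 array left out. Genes higher numbered 490, and 203 with no filter, 0 without the trend, 9 with the replicate block and 0 to 15 when 1 array was left out. Genes lower numbered 321, and 1205 after median centring, 99 with no filter, 0 without the trend, 151 without _x_at and _s_at probe sets, 2 with the block and 0 to 2 when 1 array was left out. ARRDC2 was -0.136 after quantile normalization, -0.0888 after median centring, -0.0918 after cyclic loess, and between -0.02 and 0.0787 when 1 array was left out (-0.0232 without shEZH2 replicate 2, -0.0217 without shNTC replicate 1). MLXIP was 0.0568 with the mean of its probe sets, 0.0757 without shEZH2 replicate 2 and 0.11 without shNTC replicate 2 (range -0.13 to 0.11), and TXN was 0.0346 after cyclic loess.

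For the difference between the lines' effects, TXNIP at -1.24 passed with a filter at 4 arrays (adjusted p = 0.0445) and with the replicate block (adjusted p = 0.00886), and was -1.42 to -1.05 when 1 array was left out, passing without either shNTC array. Members called numbered 0, and 2 with the filter at 4 arrays, 1 with the block and 0 to 2 when 1 array was left out. Genes higher numbered 163, and 94 with no filter, 1 without the trend and 0 to 345 when 1 array was left out. Genes lower numbered 59, and 37 with 64 added, 20 with no filter, 106 with the filter at 4 arrays, 0 without the trend, 30 with the mean of probe sets, 156 with the block and 0 to 128 when 1 array was left out. TXNIP was -0.99 with the mean of its probe sets (limma, adjusted p = 0.244), and TXN was 0.0199 after cyclic loess.

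Between the lines over both hairpins, genes higher in KARPAS-422 numbered 3057, and 4688 after median centring. Members called numbered 3, and 4 after median centring, 2 with no filter, without the trend or with the replicate block, and 1 without _x_at and _s_at probe sets. MLXIP was 0.15 and TXNRD1 0.26 after median centring, and TXNRD1 was 0.0672 without shEZH2 replicate 2 (range -0.0349 to 0.0672).

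Same-numbered KARPAS-422 arrays did not deviate together (r = 0.00651 across 13036 genes, 2 pairs), and no label says what a number marks, so the replicate block stands here only. With it, 1776 genes were higher and 1850 lower in KARPAS-422, and TXN was called at -0.20 (adjusted p = 0.0357). MAS5 gave no detection calls here, so a dim probe set, such as those of ARRDC4, bounds nothing.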
